A study of Mus musculus with 8 samples.

Results

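Collagen chains are the protein subunits of collagens, the main structural proteins of the extracellular matrix. The chains described here are the genes whose symbol is Col, a number, a and a number (Col1a1 and so on), taken from array rows annotated with exactly 1 symbol, with the row of the highest mean over the 8 hearts kept for each gene. This gave 44 chains, from 46 rows, among the 19938 genes measured. RNA came from hearts of 4 male mice labelled MHC-Plin5, which overexpress the lipid droplet protein perilipin 5, and 4 male mice labelled control. All were of a c57/bl background, 12 weeks old and labelled as fasted, and the labels do not say which chambers the heart samples held. The series title calls the overexpression cardiomyocyte specific, and neither the construct of the controls nor litters are described in the sources used here. Levels are log2 values, so a difference of 1 is a doubling, and a difference is always MHC-Plin5 minus control.

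Each collagen molecule is 3 chains wound into a triple helix, either copies of the same chain or partners made from different genes. Fibrillar collagens, above all types I and III, form the stiff fibrils between heart muscle cells, and fibroblasts make most of them. Type IV collagens form the sheet-like basement membrane around muscle cells, capillaries and smooth muscle, and types XV and XVIII lie in the zone beside it. The short-chain collagens VIII and X form open lattices, and type VIII is known from vessel walls and from remodelling hearts. The other collagens comprise beaded filaments (type VI), chains that decorate fibrils (types IX, XII, XIV and relatives) and chains held in the cell membrane (types XIII, XVII, XXIII and XXV).

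In MHC-Plin5 hearts the level of Plin5 was 11.7-fold that of controls (limma adjusted p = 6.91e-07), with no overlap between the groups, as the labels require. All 7 defining cardiomyocyte markers were measured, at a mean level of 13.32 to 13.37 in control and 13.16 to 13.40 in MHC-Plin5 hearts, and 0 were called (1 higher unadjusted, Mybpc3, 0.23, adjusted p = 0.242). Mybpc3 was also the 1 marker with a difference above 0. The other 6 lay below 0, down to -0.18 for Myh6, and the median of the list was -0.11. The medians of all rows lay between 5.99 and 6.04 on 6 arrays, and at 6.25 in control 2 and 6.18 in MHC-Plin5 4. Control 2 was the highest control in 35 of the 44 chains. The labels tie no heart to a litter or array batch, and p-values measure the spread between these 8 hearts.

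Of the 44 collagen chains, 1 was called higher in MHC-Plin5 hearts and 0 lower in limma at an adjusted p under 0.05. The called chain was Col8a1. Over all genes tested, 3.25% were called, 2.08% higher and 1.17% lower, so 1 in 44 (2.27%) was close to the background and is no result about collagens as a group. At an unadjusted p under 0.05, 3 chains were higher (Col8a1, Col4a1 and Col4a2) and 0 lower, against 8.69% and 7.86% of all genes, 16.6% together. Levels of the groups did not overlap in 2 chains, higher in MHC-Plin5 hearts for Col8a1 and lower for Col13a1. Such a gap was found in 11.2% of all genes, 6.24% higher and 5.0% lower. The median difference was -0.037 over the chains and -0.032 over all genes, and that of the chains had no settled sign (0.091 over the 19 chains with a mean level of 7 or more, 0.039 without control 2). Bulk heart tissue was measured, so fewer cells of a type and less RNA per cell cannot be told apart for any chain.

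**Figure D1:**
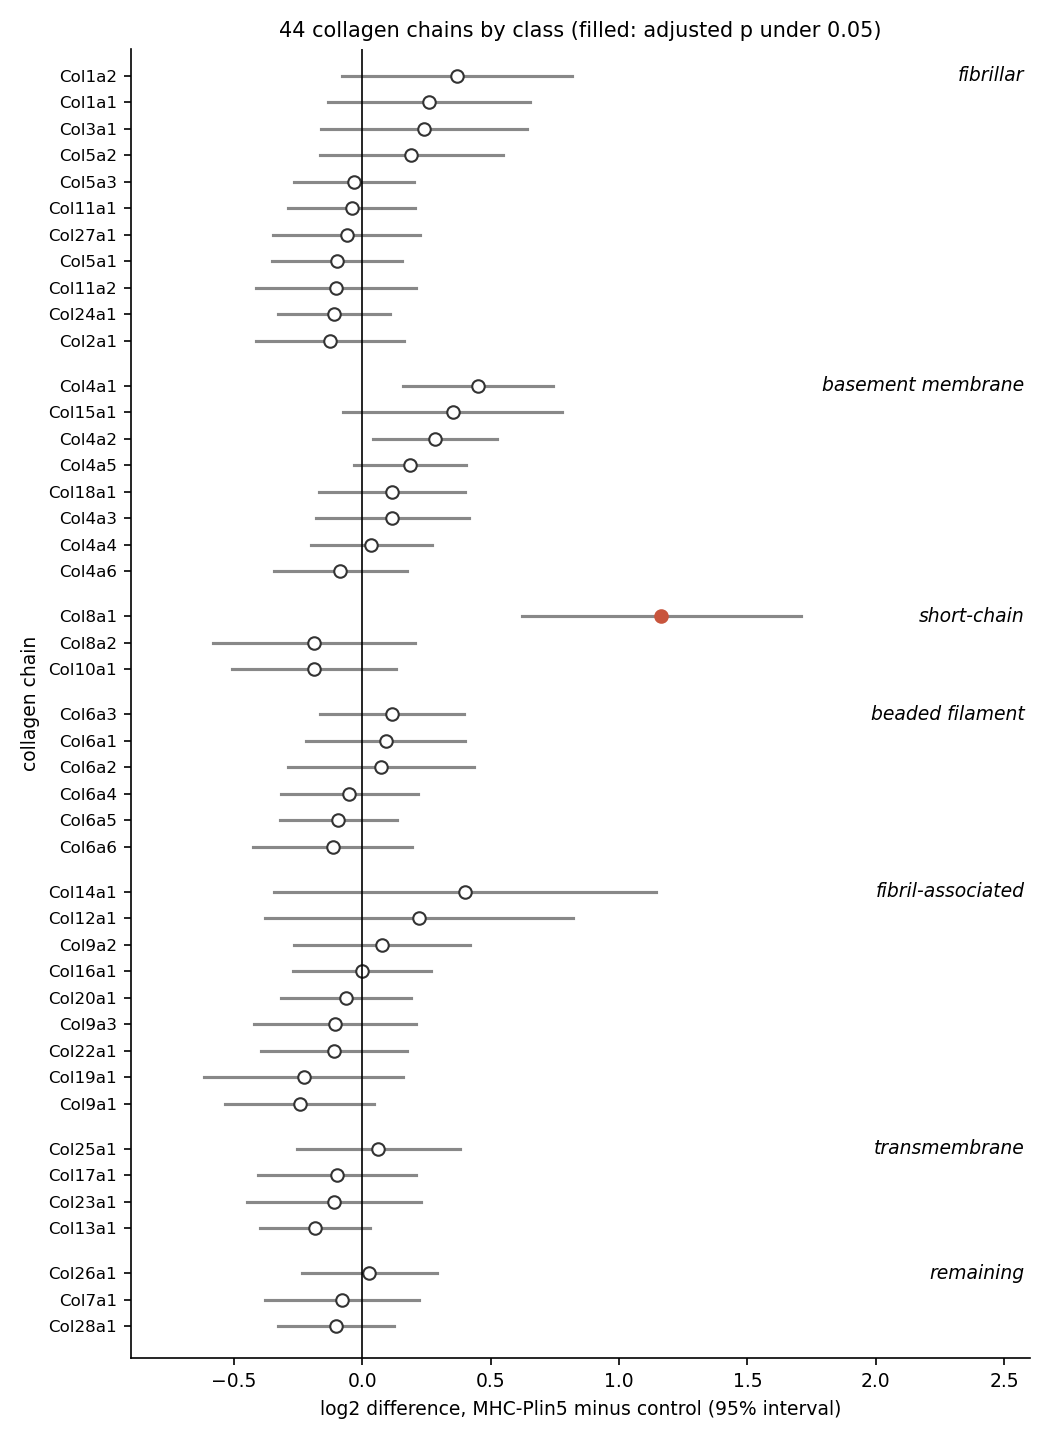
Differences between MHC-Plin5 and control hearts on the log2 scale for the 44 collagen chains, grouped by class, with points for the limma estimate and lines for its 95% interval (n = 4 hearts per group). Col8a1, the 1 filled point, stands at 1.17, and the intervals of all other chains except Col4a1 and Col4a2 include 0.

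Col8a1 encodes the alpha 1 chain of type VIII collagen, which can form trimers alone or with the product of Col8a2. The control hearts 1 to 4 stood at log2 levels of 7.88, 8.16, 8.03 and 8.18, and the MHC-Plin5 hearts 1 to 4 at 8.67, 9.45, 9.99 and 8.78. Every MHC-Plin5 heart was above every control, with hearts 2 and 3 highest, and the MHC-Plin5 hearts were the more spread. The means were 9.23 ± 0.62 and 8.06 ± 0.14 (SD, n = 4 each), a 2.24-fold difference (log2 difference 1.17, SE 0.25, limma adjusted p = 0.0304). The call ended without control 1, control 2, control 3, control 4 or MHC-Plin5 2 (adjusted p = 0.1, 0.0737, 0.09, 0.0663 and 0.102), with differences of 1.09 to 1.20 in those fits. Over all 23 alternatives the adjusted p ran from 0.00515 to 0.335, and it stayed under the threshold in 14 of them, among them the fit without the 2 arrays of highest median (control 2 and MHC-Plin5 4; 1.35, adjusted p = 0.0454).

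The promoter window of Col8a1 is printed here because it belongs to the 1 called chain. It runs from 250 bases before to 50 bases after the gene's start, on the minus strand at chr16:57754688-57754987 in GRCm38.p6, from RefSeq, and capitals mark matches to the GC box GGGCGG, read here on the opposite strand.
Col8a1: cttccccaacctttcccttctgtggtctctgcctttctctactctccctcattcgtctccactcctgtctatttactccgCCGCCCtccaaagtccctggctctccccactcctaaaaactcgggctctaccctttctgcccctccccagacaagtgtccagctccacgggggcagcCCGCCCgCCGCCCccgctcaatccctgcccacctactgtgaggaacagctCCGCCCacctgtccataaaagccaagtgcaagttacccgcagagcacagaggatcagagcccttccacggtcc
The GC box, sought on both strands, lies in 4 places in this window. Windows were found for 35 of the 44 chains (38 windows in all, since some genes have several starts), and 23 of these 38 hold a GC box, against 35.7% of all 32851 windows of that length. TATAAA was found in 5 of the 38 (13.6% of all windows) and CCAAT in 13 (37.4%). TGANTCA, the AP-1 site, was found in 1 (7.81%). TGATGNAA, a core of the amino acid response element bound by ATF4, was found in 0 (3.97%). These are matches of letters and show nothing about binding.

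The row of the partner chain Col8a2 did not follow that of Col8a1. It stood at 6.21, 6.71, 6.30 and 6.34 in control 1 to 4 and at 6.57, 6.17, 5.70 and 6.37 in MHC-Plin5 1 to 4. The groups overlapped, and MHC-Plin5 3, the highest heart for Col8a1, was the lowest of all hearts for Col8a2. The difference was -0.19 (95% interval -0.58 to 0.21, adjusted p = 0.673). Col10a1, the third short-chain collagen and a marker of cartilage that turns to bone, had a mean of 5.66 ± 0.29 in control hearts and of 5.47 ± 0.16 in those labelled MHC-Plin5 (SD, 4 hearts per group; difference -0.19, adjusted p = 0.584). The median of the 3 short-chain collagens was -0.19, of the opposite sign to Col8a1. The rows of Col8a2 and Col10a1 were dim, with means of 6.29 and 5.57 over all hearts, where the array medians had a mean of 6.07. Without detection calls, the lack of a rise in these rows cannot be told from a lack of signal.

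Among the 8 basement membrane collagens, 0 were called, and 7 of 8 had a difference above 0, where 42.5% of all genes did. Their median was 0.15 (0.35 over the 3 chains left by a filter at a mean level of 7). Col4a1, a chain of the common type IV trimer, stood at 7.97, 8.17, 8.23 and 8.17 in control 1 to 4 and at 8.21, 8.63, 8.80 and 8.70 in MHC-Plin5 1 to 4. MHC-Plin5 1 lay within the control range, just under control 3, and the other 3 MHC-Plin5 hearts lay above every control. The difference was 0.45 (SE 0.13, 95% interval 0.16 to 0.74, adjusted p = 0.101). Without MHC-Plin5 1 it was 0.58 and called (adjusted p = 0.0231).

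Col4a2, which supplies the other chain of that trimer, stood at 8.21, 8.49, 8.29 and 8.21 in control 1 to 4 and at 8.37, 8.65, 8.72 and 8.60 in MHC-Plin5 1 to 4. The same 3 MHC-Plin5 hearts, 2, 3 and 4, were above every control, and MHC-Plin5 1 was again within the control range. The difference was 0.28 (SE 0.11, 95% interval 0.04 to 0.53, adjusted p = 0.218).

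Col4a1 and Col4a2 lie head to head on chromosome 8, transcribed away from each other, and their windows are printed because the 2 chains had the same 3 hearts above all controls. The windows are at chr8:11312777-11313076 on the minus strand and chr8:11312555-11312854 on the plus strand in GRCm38.p6, from RefSeq. Capitals mark the 78 bases that both windows hold, each as the reverse complement of the other.
Col4a1: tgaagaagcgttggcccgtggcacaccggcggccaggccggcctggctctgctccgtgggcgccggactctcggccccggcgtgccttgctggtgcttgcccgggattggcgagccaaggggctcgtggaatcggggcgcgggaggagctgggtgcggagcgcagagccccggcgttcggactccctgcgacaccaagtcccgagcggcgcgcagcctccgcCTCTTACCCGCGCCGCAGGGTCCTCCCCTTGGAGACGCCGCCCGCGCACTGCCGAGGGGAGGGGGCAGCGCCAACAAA
Col4a2: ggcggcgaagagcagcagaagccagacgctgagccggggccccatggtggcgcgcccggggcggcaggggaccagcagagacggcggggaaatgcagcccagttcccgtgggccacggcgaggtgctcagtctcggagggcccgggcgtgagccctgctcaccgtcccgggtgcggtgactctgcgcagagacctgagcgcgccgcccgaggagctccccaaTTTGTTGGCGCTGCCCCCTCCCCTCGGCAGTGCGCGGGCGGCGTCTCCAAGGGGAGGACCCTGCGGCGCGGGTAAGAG
Each window holds CCAAT once and the GC box at least once, with a GC box inside the shared stretch. TATAAA was not found in either. The G and C content was 74.0% and 73.7%, against 60.3% in the Col8a1 window.

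The rarer type IV chains, which form the networks of kidney, lung and other special membranes, differed less. Col4a5 had a difference of 0.19 (95% interval -0.034 to 0.40, adjusted p = 0.396), with 6.44 to 6.78 in control and 6.70 to 6.83 in MHC-Plin5 hearts. Col4a3, Col4a4 and Col4a6 had differences of 0.12, 0.036 and -0.085. Col15a1, found around vessels and muscle fibres, stood at 8.24, 8.60, 8.25 and 8.71 in control 1 to 4 and at 8.34, 8.96, 9.30 and 8.60 in MHC-Plin5 1 to 4. Only MHC-Plin5 2 and 3 were above every control, as the 2 highest hearts for Col8a1 (0.35, SE 0.19, adjusted p = 0.413). Col18a1, the source of the fragment endostatin, had a difference of 0.12 (SE 0.13, adjusted p = 0.724).

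**Figure D2:**
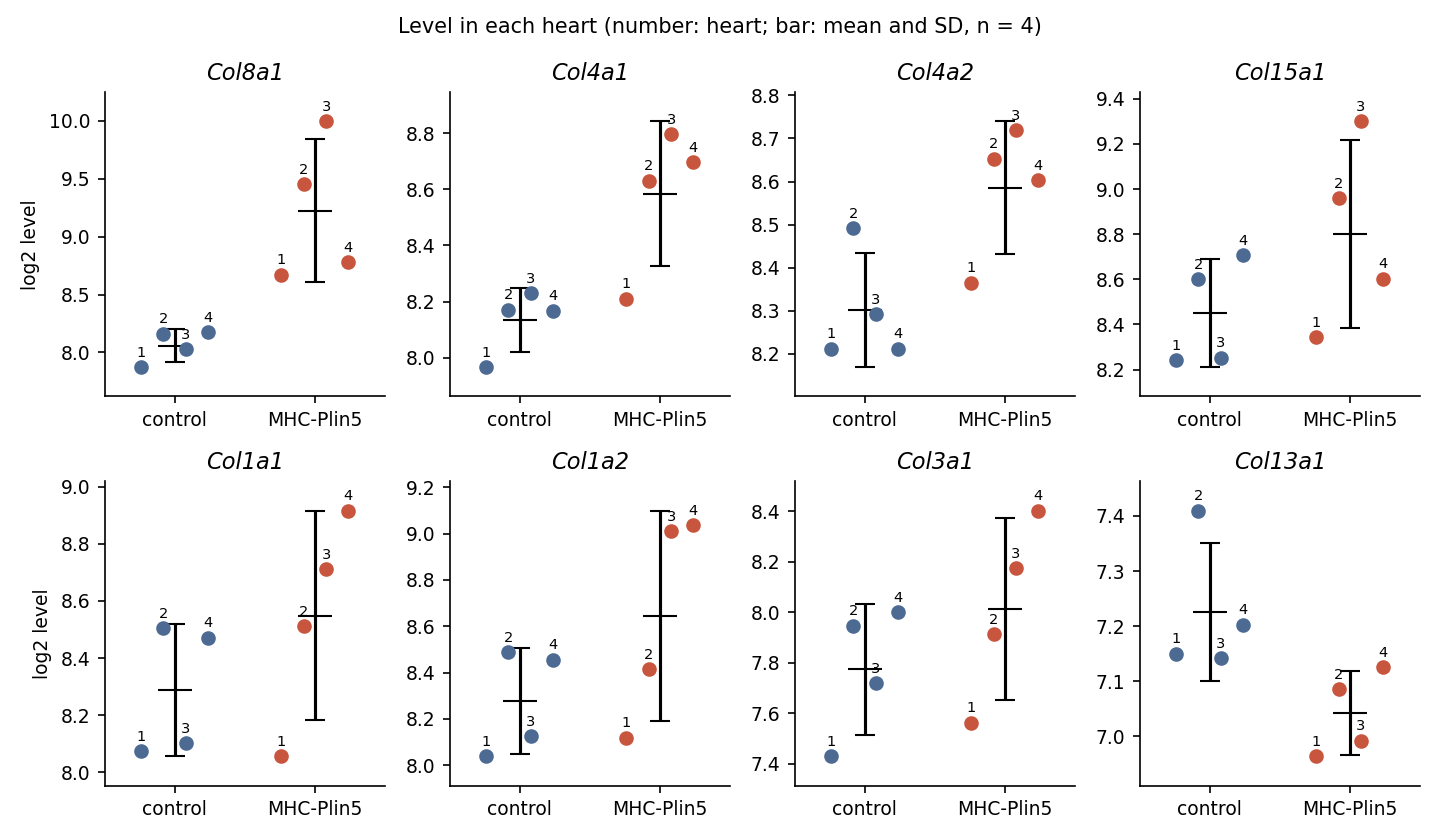
Log2 level of 8 collagen chains in each heart, control in blue and MHC-Plin5 in red, with the heart's number above each point and bars for the mean and SD (n = 4 per group); each panel has its own scale, which does not start at 0. The groups are apart for Col8a1 and, in the lower direction, Col13a1, while MHC-Plin5 1 lies within the control range, or just under it for Col1a1, in the other 6 chains.

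Of the 11 fibrillar collagens, 0 were called, 0 had an unadjusted p under 0.05, 4 had a difference above 0 and 7 below, and the median was -0.041 (0.089 over the 6 chains with a mean level of 7 or more, 0.038 without control 2). Col1a1, the main chain of type I collagen, stood at 8.07, 8.51, 8.10 and 8.47 in control 1 to 4 and at 8.06, 8.51, 8.71 and 8.92 in MHC-Plin5 1 to 4. MHC-Plin5 1 was the lowest of all hearts and MHC-Plin5 3 and 4 were the highest, so the groups overlapped. The difference was 0.26 (SE 0.18, 95% interval -0.13 to 0.65, adjusted p = 0.524), so the interval holds both signs.

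Its partner Col1a2 stood at 8.04, 8.49, 8.12 and 8.45 in control 1 to 4 and at 8.12, 8.42, 9.01 and 9.04 in MHC-Plin5 1 to 4. MHC-Plin5 3 and 4 were again above every control and MHC-Plin5 1 and 2 within the control range (0.37, SE 0.20, adjusted p = 0.412). Col3a1, which makes type III collagen, had the same 2 hearts on top, with control 1 to 4 at 7.43, 7.95, 7.72 and 8.0 and the MHC-Plin5 hearts 1 to 4 at 7.56, 7.91, 8.17 and 8.40 (0.24, SE 0.18, adjusted p = 0.581). Types I and III are the bulk of the interstitial fibrils, and in these rows none of the 3 chains passed the test.

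Type V collagen starts fibrils and sets their width. Its chains Col5a2 and Col5a1 had differences of 0.19 (SE 0.16, adjusted p = 0.625) and -0.099 (SE 0.11, adjusted p = 0.739), and Col5a3 had -0.033. Each of Col1a1, Col1a2, Col3a1, Col5a1 and Col5a2 had MHC-Plin5 1 as the lowest heart of its group, to 2 decimals tied with heart 3 for Col5a1. The other 6 fibrillar chains, which include Col2a1 and Col11a1 of cartilage, lay between -0.13 and -0.033.

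Type VI collagen links cells to the fibrils as a beaded network of 3 chains. Col6a1, Col6a2 and Col6a3 had differences of 0.091 (SE 0.14, adjusted p = 0.815), 0.072 (SE 0.16, adjusted p = 0.88) and 0.12 (SE 0.13, adjusted p = 0.721). Without control 1 the difference of Col6a1 was -0.0044, and without MHC-Plin5 3 that of Col6a2 was -0.026, so neither has a settled direction. Col6a4, Col6a5 and Col6a6 lay between -0.12 and -0.050. The second rows of Col6a5 and Col6a6, the 2 chains with several rows, had differences of -0.11 and -0.37 beside -0.094 and -0.12 in the rows used.

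Among the 9 fibril-associated collagens 0 were called and 0 had an unadjusted p under 0.05, and the median was -0.065. The pair with the widest spread, chosen after the values were seen, was Col14a1 and Col12a1, which bind to the surface of fibrils. Col14a1 stood at 7.25, 7.93, 7.54 and 8.56 in control 1 to 4 and at 7.56, 7.92, 9.17 and 8.23 in MHC-Plin5 1 to 4, with MHC-Plin5 3 highest (0.40, SE 0.34, adjusted p = 0.623). Without MHC-Plin5 3 the difference was 0.083. Col12a1 had MHC-Plin5 3 highest too, at 6.93 with the next heart, control 4, at 6.21 (0.22, SE 0.27, adjusted p = 0.755), and its difference was -0.061 without that heart. Col9a1 and Col19a1 stood lower, with -0.24 (SE 0.13, adjusted p = 0.396) and -0.23 (SE 0.18, adjusted p = 0.583), and control 2 was the highest heart in both.

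The membrane-spanning Col13a1, found at cell contacts and at nerve-muscle junctions, was the 1 chain whose MHC-Plin5 hearts all lay below the controls. It stood at 7.15, 7.41, 7.14 and 7.20 in control 1 to 4 and at 6.96, 7.09, 6.99 and 7.13 in MHC-Plin5 1 to 4. The gap between the groups was small, and the difference of -0.18 (SE 0.098, 95% interval -0.40 to 0.031, adjusted p = 0.39) was not called. The other membrane-spanning chains, Col17a1, Col23a1 and Col25a1, lay between -0.11 and 0.063. Col7a1, Col26a1 and Col28a1 lay between -0.10 and 0.028. In all, the 25 chains outside the rule for named genes had differences of -0.13 to 0.40 and adjusted p-values of 0.623 or more.

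The sign of the difference went with the mean level of the row. All 9 chains with a mean log2 level of 8 or more had a difference above 0, where 53.8% of the 5739 such genes did. Of the 10 chains with a mean from 7 to under 8, 4 had a difference above 0. Of the 25 chains with a mean under 7, 7 had a difference above 0, where 33.0% of the 11039 such genes did. The 9 bright rows are Col1a1, Col1a2, Col4a1, Col4a2, Col6a1, Col6a2, Col8a1, Col14a1 and Col15a1, and 1 of these 9 was called. The split was drawn after the values were seen and was not tested. The table holds no detection calls, so how many of the dim rows carry signal above background is unknown.

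Whether Col1a1, Col4a1 and Col8a1, chains of different classes, changed unequally was tested on 3 ratios within each heart, which cancel a shift that both rows share. These are single chains and do not stand for their whole classes. The members were chosen with earlier results of these data known. The ratios to Col8a1 hold its own difference and are no separate support for it. The log2 ratio of Col1a1 to Col4a1 differed by -0.19 between the groups (exact two-sided permutation p = 0.229, adjusted over the 3 ratios 0.229). For Col1a1 to Col8a1 the difference was -0.90, lower in 3 of 4 MHC-Plin5 hearts than in any control (exact p = 0.0571, adjusted 0.0857). For Col4a1 to Col8a1 it was -0.71, lower in 4 of 4 (exact p = 0.0286, the smallest that 4 against 4 hearts can give, adjusted 0.0857). None of the 3 ratios passed after adjustment. A single ratio at the smallest exact p is adjusted to 0.0857 over 3 ratios, so it could not have passed alone. No conclusion is drawn from that failure for Col4a1 to Col8a1.

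The markers of matrix-producing and other cells were set beside the classes heart by heart. Fibroblast markers, 9 of 9 measured, had a mean level of 8.69 to 9.17 in control and 8.74 to 9.39 in MHC-Plin5 hearts, and 0 of 9 were called (2 higher and 1 lower at an unadjusted p under 0.05). Their mean difference from the control mean in MHC-Plin5 1 to 4 was -0.14, 0.20, 0.50 and 0.24. For the 6 markers of activated fibroblasts it was -0.049, 0.27, 0.88 and 0.054, and again 0 were called and 1 was higher unadjusted (mean level 7.41 to 7.71 against 7.48 to 8.41). The smallest p-values of the 2 lists were those of Scara5 (-0.70, adjusted p = 0.0946) and Meox1 (1.04, adjusted p = 0.109). Scara5 went against most of its list, as 7 of the 9 fibroblast markers had a difference above 0 and 2 below. The 2 higher unadjusted were Pdgfra (0.38, adjusted p = 0.142) and Mfap5 (0.77, adjusted p = 0.269). Of the 6 markers of activated fibroblasts 4 had a difference above 0 and 2 below, with Postn at 0.49 (adjusted p = 0.536), Acta2 at 0.34 (adjusted p = 0.647), Ltbp2 at 0.29, Cthrc1 at -0.10 and Fap at -0.33 (adjusted p = 0.318). MHC-Plin5 3 was thus the highest heart for both lists and for Col8a1, Col4a1, Col4a2, Col15a1, Col14a1 and Col12a1, and MHC-Plin5 1 was the lowest heart of its group for each of these. The part of fibroblast number in these values was not tested.

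Endothelial markers (9 of 9 measured) had a mean level of 10.01 to 10.06 in control and 9.84 to 10.03 in MHC-Plin5 hearts, and 0 were called, also unadjusted. Those of smooth muscle and pericytes (9 of 9) had 9.10 to 9.32 and 8.89 to 9.55, with 0 called higher and 1 lower, where 2.08% and 1.17% of all genes were (1 higher and 3 lower unadjusted). Of these Kcnj8, a potassium channel of pericytes, was called lower (-0.43, SE 0.096, adjusted p = 0.0377), and the call ended when any 1 of the controls, or heart 2 or heart 3 of the MHC-Plin5 group, was left out. The other lower ones, also known from pericytes, were Rgs5 (-0.36, adjusted p = 0.0951) and Abcc9 (-0.45, adjusted p = 0.159). The 1 higher unadjusted was Cspg4 (0.34, adjusted p = 0.173), and Pdgfrb had 0.044. In this list 4 of 9 markers had a difference above 0 and 5 below. Leukocyte markers (7 of 7) had 7.35 to 7.87 and 7.51 to 8.07 with 0 called (1 higher and 1 lower unadjusted). Of these 5 had a difference above 0 and 2 below, and the 1 higher unadjusted was Ptprc (0.43, adjusted p = 0.298). Atrial cardiomyocyte markers (5 of 5) varied most, with 7.25 to 11.33 in control and 8.04 to 11.63 in MHC-Plin5 hearts, with 0 called and 1 higher unadjusted (Nppa, 1.08, adjusted p = 0.238). Their mean was high in control 2 and 4 and in MHC-Plin5 3 and 4. MHC-Plin5 1 lay between, 0.35 above the control mean beside 0.90 in control 2. Nppa went apart from other atrial markers in MHC-Plin5 2, where it stood at 13.90 with Myl7 at 5.98 and Myl4 at 9.63. Myl7, the atrial myosin light chain, stood at 7.13, 10.61, 6.35 and 12.92 in control 1 to 4 and at 10.74, 5.98, 11.90 and 11.51 in the MHC-Plin5 hearts 1 to 4, so the samples differed widely in atrial transcripts within both groups. Control 2 and 4 and MHC-Plin5 2, 3 and 4 were the highest for Col1a1, and MHC-Plin5 1 was the lowest. The part of atrial tissue in the fibrillar chains was not tested. Valve or cartilage-like markers (6 of 6) ranged over 5.90 to 6.70 and 5.88 to 6.88, epicardial ones (5 of 5) over 6.38 to 8.23 and 6.84 to 7.44, Schwann ones (3 of 5) over 6.17 to 6.56 and 5.83 to 6.38, and adipocyte ones (4 of 5) over 5.70 to 8.57 and 5.41 to 6.58, with 0 called in each and 1 or 0 genes per list past the unadjusted threshold. The gene with the smallest p of its own list was Cilp for valve (0.80, adjusted p = 0.0532), Sox10 for Schwann (-0.33), Msln for epicardial (-0.30), Retn for adipocyte (-0.91), Cdh5 for endothelial (-0.15) and Cd79a for leukocyte markers (-0.51), the last 5 with an adjusted p of 0.164 or more.

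**Figure D3:**
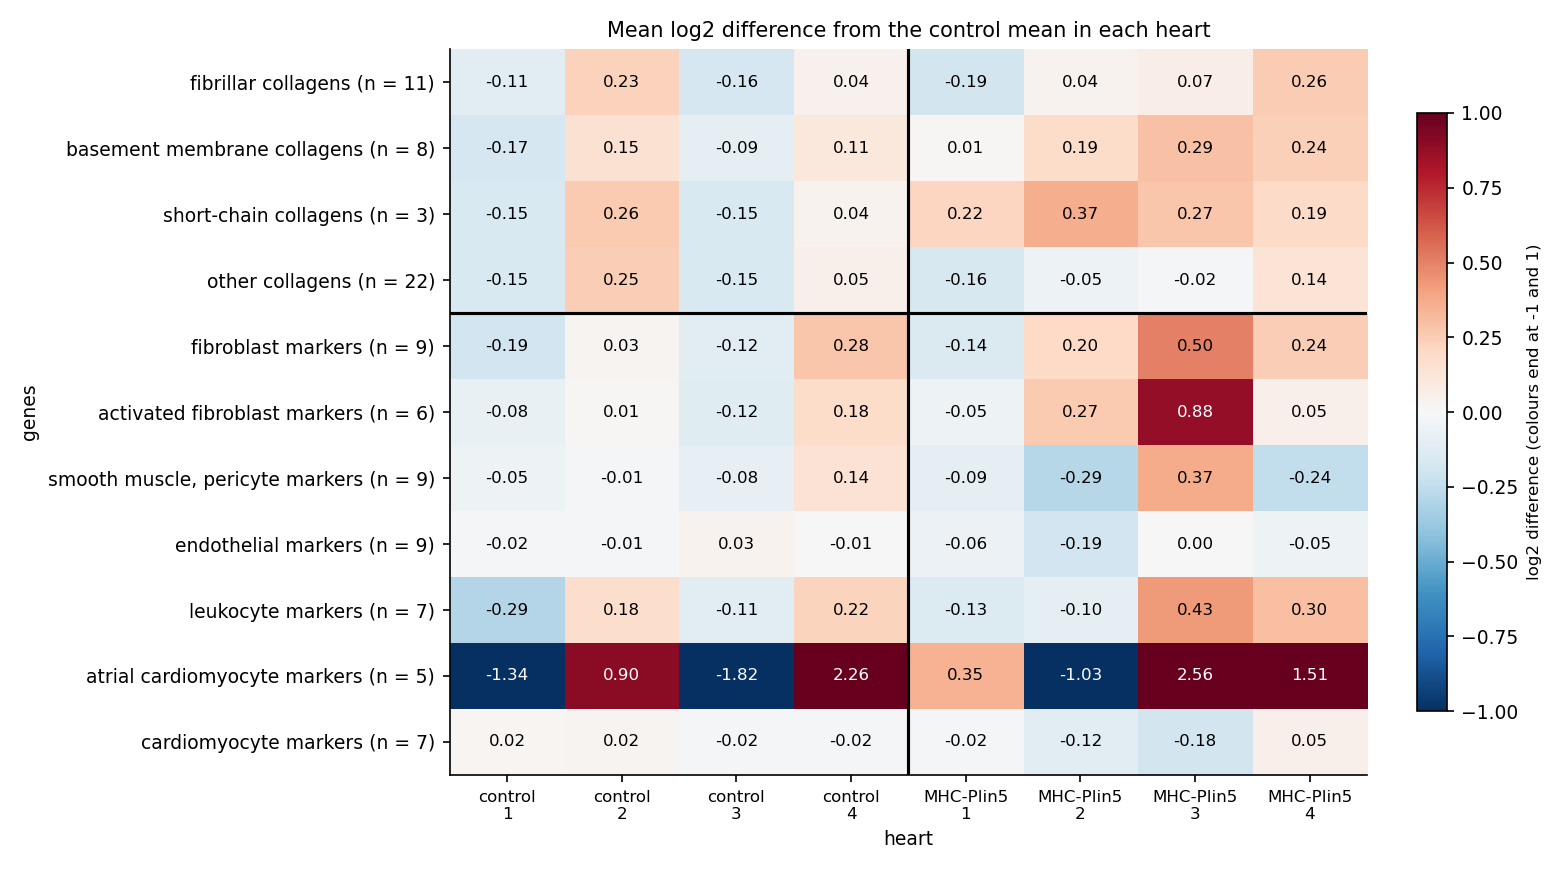
Mean log2 difference from the control mean in each of the 8 hearts (columns), over the genes of 4 classes of collagens and 7 lists of cell markers (rows); red is higher and blue lower, and the colours end at -1 and 1. Atrial markers range from -1.82 to 2.56, fibroblast markers peak in MHC-Plin5 3 at 0.50, and the classes of collagens stay between -0.19 and 0.37.

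Genes that fold, modify and export collagen chains had 1 member called higher and 1 lower among 20 measured of 21 listed, against 2.08% and 1.17% of all genes, with a median of 0.25. P3h2, a prolyl 3-hydroxylase that acts mainly on type IV collagen, stood at 7.49, 7.82, 7.72 and 7.84 in control 1 to 4 and at 8.91, 10.59, 10.23 and 8.54 in MHC-Plin5 1 to 4. Every MHC-Plin5 heart was above every control, with hearts 2 and 3 highest as for Col8a1. P3h2 was 3.60-fold higher (1.85, SE 0.38, adjusted p = 0.0262). The call ended with any 1 of the controls left out, and with MHC-Plin5 heart 2 or heart 3 left out, at adjusted p-values of 0.0583 to 0.0899.

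P3h4, a partner protein in the hydroxylation of helical lysines, was lower in every MHC-Plin5 heart. It stood at 8.69, 8.73, 8.42 and 8.53 in control 1 to 4 and at 7.75, 7.39, 7.74 and 7.89 in MHC-Plin5 1 to 4 (-0.90, SE 0.125, adjusted p = 0.00352). The call held with each heart left out in turn. The remaining 18 genes were not called. Among them, chosen after their values were seen, P4ha2, a catalytic subunit of prolyl 4-hydroxylase, had 0.58 (SE 0.17, adjusted p = 0.0914), P4ha1 0.67 (adjusted p = 0.156), its partner P4hb 0.34 (adjusted p = 0.126), the lysyl hydroxylase Plod1 0.32 (adjusted p = 0.13) and the collagen chaperone Serpinh1 0.52 (adjusted p = 0.129). In all, 9 genes of the list were higher and 1 lower at an unadjusted p under 0.05, where 8.69% and 7.86% of all genes were. The number called higher in this list was 2 without MHC-Plin5 1 or MHC-Plin5 4, and 4 with array weights. Over all genes, the number called ran from 233 to 1174 with 1 heart left out, beside 648 in the main fit. The share of all genes called is not given here for each of these fits, so the changed counts are no result about the list.

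**Figure D4:**
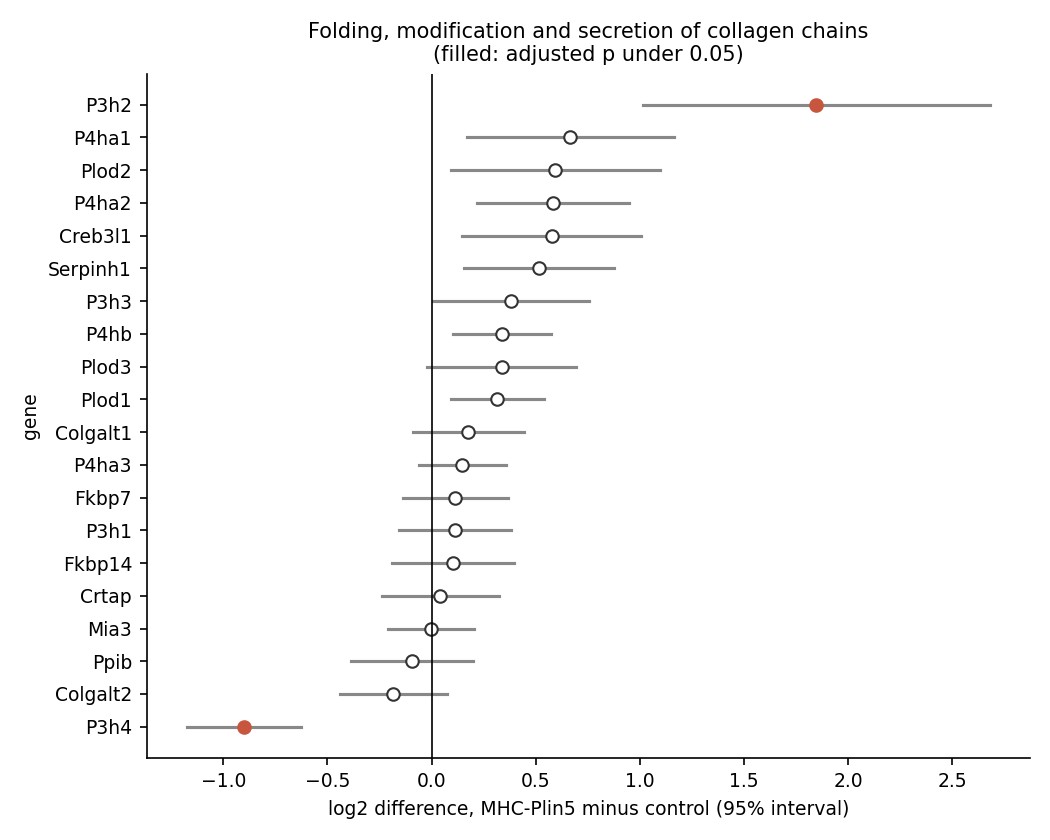
Differences between MHC-Plin5 and control hearts on the log2 scale for 20 genes of collagen folding, modification and secretion, with the limma estimate as a point and its 95% interval as a line (n = 4 hearts per group). P3h2 at 1.85 and P3h4 at -0.90 are the filled, called points.

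The later steps of collagen assembly had no called gene in limma: 0 of 7 that remove propeptides, 0 of 4 lysyl oxidases that cross-link fibrils and 0 of 12 proteins that sit on fibrils. At an unadjusted p under 0.05 these lists had 0 higher and 2 lower, 1 and 0, and 1 and 0. Without MHC-Plin5 4, and with array weights, 1 gene that removes propeptides was called lower. Adamts3, which trims procollagen II, had -0.39 (adjusted p = 0.115), Loxl4 0.49 (adjusted p = 0.289) and the proteoglycan biglycan, Bgn, 0.53 (adjusted p = 0.162). Of 12 partners of type IV collagen in basement membranes 0 were called, with a median of 0.0165 and with 0 higher and 1 lower at an unadjusted p under 0.05, and the laminin chain Lama5 had -0.57 (adjusted p = 0.0975). Without MHC-Plin5 4, and with array weights, 1 gene of this list was called lower. As the share of all genes called in these fits is not given here, neither this count nor that for propeptide removal is read as a result. Of 9 collagen receptors 0 were called (1 higher and 0 lower unadjusted), and Mrc2, which takes up collagen for degradation, had 0.47 (adjusted p = 0.154).

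Signals of the TGF-beta pathway, the best known inducer of fibrillar collagen genes, had 0 of 15 measured genes called higher and 1 lower, where 2.08% and 1.17% of all genes were, and 3 higher and 1 lower at an unadjusted p under 0.05. The number called higher was 2 without MHC-Plin5 4 and 3 with array weights. The share of all genes called in these fits is not given here, and these counts are not read as a result. Ltbp1, which holds latent TGF-beta in the matrix, fell by 0.58 on the log2 scale (SE 0.13, adjusted p = 0.0323). Leaving out any 1 of the same 6 hearts as for P3h2 ended this call too, with a difference of -0.49 to -0.60. Of the others, Tgfb2 and Ccn2 were chosen after their values were seen. Tgfb2, a TGF-beta ligand, stood at 7.42 to 7.69 in control and at 8.24, 10.33, 10.34 and 7.72 in MHC-Plin5 1 to 4 (1.59, SE 0.51, adjusted p = 0.134). Ccn2, a matrix protein that the pathway induces, stood at 10.21 to 11.32 in control and at 11.23, 12.76, 13.67 and 10.93 in MHC-Plin5 1 to 4 (1.56, SE 0.52, adjusted p = 0.148). Both were highest in MHC-Plin5 2 and 3, the 2 hearts with the highest Col8a1, Col15a1 and P3h2. Plin5 itself was also highest in these 2 hearts, at 12.69 and 12.63, against 12.17 in MHC-Plin5 1 and 12.08 in MHC-Plin5 4. The fibrillar chains Col1a1, Col1a2 and Col3a1 were instead highest in MHC-Plin5 3 and 4. Whether these orders of hearts are linked was not tested.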

How the data were processed

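Each heart has 1 Affymetrix array. The authors deposited log2 values summarised by RMA; per the submitters' processing notes the software was Affymetrix Expression Console, whose version and settings were not given in the sources used here. No batch is named. The 35556 rows gave 21789 with 1 symbol in GEO's annotation and 19938 genes (brightest row each, no filter). Groups were compared with lmFit and eBayes of limma 3.58.1 in R 4.3.3, genotype as the only term, two-sided, Benjamini-Hochberg over all genes, and called means an adjusted p under 0.05. The step was tested on simulated data. Ratios used exact permutation tests (scipy 1.17.1). The array number limits precision. Promoter windows are RefSeq's, on GRCm38.p6.

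The members, classes and gene lists were chosen with earlier results of these data known. Named are called chains, the 3 chains of each class with the smallest p, 13 well-known chains, and of each list up to 4 called genes or else the gene with the smallest p. Alternatives were filters at a mean of 5 or 7, quantile normalization, median centring, the array median as covariate, variances that follow intensity (also made robust), weighted arrays, averaging a gene's rows, every row, the heart number as block, hearts left out, Welch's test per gene and stricter or looser thresholds.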

Additional observations from a re-analysis of the deposited data

Results flagged for a closer look

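In groups of 4 hearts, 142 groups of values were searched for 1 heart far from the other 3, which chance gives in about 1 in 20 groups, and 4 were found. Col16a1 stood at 7.09 in MHC-Plin5 4, with the other MHC-Plin5 hearts at 6.72 to 6.76. Col23a1 stood at 7.30 in MHC-Plin5 4, with the nearest heart at 6.85. Col4a3 stood at 6.66 in MHC-Plin5 4, with the nearest heart at 6.31. MHC-Plin5 4 has the higher array median of its group, 6.18, and the part of that in these values was not tested. Mybpc3, a sarcomere protein of cardiomyocytes, stood at 12.67 in control 1, with the other controls at 12.61 to 12.62.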

How the results depend on the processing

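The number of collagen chains called higher was 0 with the array median as a covariate, with every row tested, by Welch's test and at an adjusted p under 0.01, and the number of named chains called was 0 in each of these as well. Welch's test called 28 of 19938 genes, and 3 chains had an unadjusted p under 0.05 by it. Both numbers ran from 0 to 2 with 1 heart left out, with 0 when any 1 of the controls or MHC-Plin5 heart 2 was left out and 2 when MHC-Plin5 heart 1 was, where Col4a1 was the added chain. The number of chains called lower was 0 throughout. Over all genes, the number called ran from 233 to 1174 with 1 heart left out, beside 648 in the main fit. With a filter at a mean of 7 the medians rested on fewer chains, 0.35 over 3 basement membrane collagens and 1.17 over the 1 short-chain collagen left, Col8a1. The medians over all chains (0.091, 19 chains), the fibrillar (0.089, 6) and the other collagens (0.072, 9) then lay above 0 in place of below it. The median over all chains was also above 0 with median centring (0.0042), the array median as covariate (0.018) and array weights (0.021), and that of the fibrillar collagens with the covariate (0.018). Without control 2 all 3 were above 0 (0.039, 0.038 and 0.019). The median over all chains ran from -0.081 to 0.039 with 1 heart left out. With 1 heart left out Col12a1 ranged from -0.061 to 0.42, Col6a1 from -0.0044 to 0.17 and Col6a2 from -0.026 to 0.22, with the sign turned by leaving out MHC-Plin5 3 for Col12a1 and Col6a2 and control 1 for Col6a1. Of the other chains under the rule for named genes, and Col14a1, none turned sign with 1 heart left out. The remaining chains were not followed one by one through the alternatives. Leaving out 1 heart, the ratio differences ranged from -0.28 to -0.13, -1.18 to -0.70 and -0.90 to -0.53, and 3 against 4 hearts cannot reach an exact p under 0.0571.

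The heart numbers were not taken to pair hearts: the correlations of same-numbered hearts' deviations over genes were 0.19, 0.025, -0.11 and -0.04, and 1 of 4 controls matched its own number best. With the replicate block 1 chain was called higher and 0 lower, and Col8a1 had an adjusted p of 0.0261.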

Other observations

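The amino acids that make up much of a collagen chain are proline and glycine. Of 8 measured genes of their supply, 4 were called higher and 0 lower in MHC-Plin5 hearts, with a median of 0.63, where 2.08% of all genes were called higher and 1.17% lower. Aldh18a1, which starts proline synthesis, stood at 7.80, 7.99, 7.95 and 8.21 in control 1 to 4 and at 9.98, 10.28, 10.28 and 9.59 in MHC-Plin5 1 to 4 (2.04, SE 0.16, adjusted p = 9.87e-05). Psat1 and Phgdh, enzymes of serine synthesis, had 1.54 (SE 0.17, adjusted p = 0.000917) and 1.47 (SE 0.22, adjusted p = 0.00526), and Shmt2, which turns serine into glycine in mitochondria, 0.70 (SE 0.10, adjusted p = 0.00526). In these 4 genes all MHC-Plin5 hearts, heart 1 included, were above every control, and the 4 calls held with each heart left out and ended by Welch's test.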
